A study of Mus musculus with 6 samples.

Results

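Genes of the non-collagen extracellular matrix, 10 in number, were examined in the livers of mice with hepatocyte-directed editing of Prdx2, a peroxiredoxin that removes hydrogen peroxide. They were the proteoglycans Bgn and Vcan, the adhesive glycoprotein Fn1, the microfibril gene Fbn1, the fibulins Fbln1, Fbln2 and Fbln5, and the matricellular genes Postn, Thbs1 and Thbs2. These 10 rows were picked by gene symbol out of 52459 in the count table, and all 10 were among the 17032 genes with enough counts to be tested.

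RNA from whole livers of 6 male C57BL6J mice was sequenced, 3 per group, at post natal 8 months. Every mouse was an Alb-Cre/Cas9 F1 animal, in which Cre under the albumin promoter switches on Cas9 in hepatocytes, and received a guide RNA intravenously in an AAV8 vector (AAV8-U6-sgCtrl or AAV8-U6-sgPrdx2) at 4 to 5 weeks of age. Both groups were then treated alike: diethylnitrosamine (DEN, a liver carcinogen) at 100 mg/kg was injected into the peritoneum, followed by 6 months on CDAHFD, a choline-deficient high-fat diet that produces steatohepatitis and fibrosis. All 6 livers therefore carried Cre, Cas9, the vector, the carcinogen and the diet, and there was no untreated group. The study describes islets of the edited livers that still stained for PRDX2 protein, most likely cells that the vector had not reached. Livers are named here by mouse number, 5.1, 7.1 and 7.2 for sgCtrl and 1.1, 1.3 and 3.2 for sgPrdx2.

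The extracellular matrix of the liver is built of collagens and of glycoproteins and proteoglycans that join collagen, growth factors and cells. In the injured liver much of this matrix is made by hepatic stellate cells that turn into myofibroblasts, while hepatocytes are the source of plasma fibronectin. Fibrillin microfibrils and fibulins form the scaffold of elastic fibres, and matricellular proteins such as periostin and the thrombospondins act on cells and on latent TGF-beta rather than as structural parts.

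Of the 10 genes, 4 fell in sgPrdx2 livers, namely Fbln2, Fbn1, Postn and Vcan, to between 0.48 and 0.58 of their level in sgCtrl livers (edgeR's quasi-likelihood test, Benjamini-Hochberg adjusted p over all genes between 0.0386 and 0.0483, n = 3 livers per group). None rose by this test or by DESeq2, nor at an unadjusted p under 0.05 in either of these fits. Of all genes tested, 1.54% were called lower and 1.79% higher, 3.33% in all. In 8 of the 10 genes every sgPrdx2 liver was below every sgCtrl liver, which was so for 17.5% of all genes tested. The median log2 fold change was -0.82 over the 10 genes and -0.02 over all genes tested. The 10 genes were chosen with earlier results of these data known, so these counts and this median are not independent evidence. Fn1 was the only member with a log2 fold change above 0, and it did not pass the test.

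**Figure D1:**
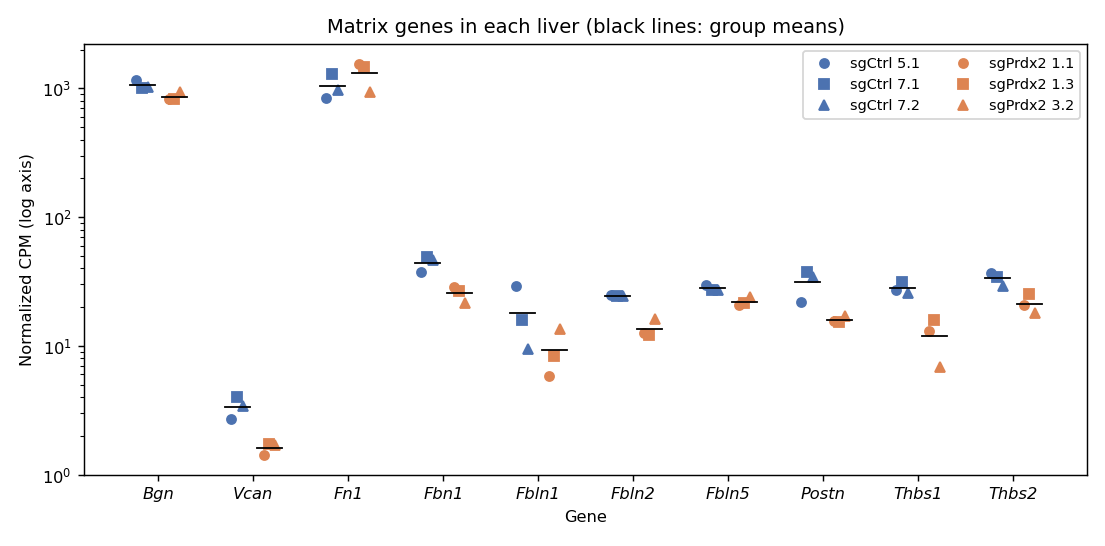
Normalized CPM (log axis) of the 10 matrix genes in each liver, blue for sgCtrl and orange for sgPrdx2. CPM scale the reads of a gene to the library's total times its TMM scaling factor. Marker shapes show single livers and black lines group means. The points of the groups lie apart for 8 genes and overlap for Fbln1 and Fn1, and Bgn and Fn1 lie far above the other 8.

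Total counts per liver ranged from 37462102 to 56865293. The mRNA of the targeted gene gave no check of the labels, and the study's staining of PRDX2 protein is not analysed here. Prdx2 mRNA was 119 ± 11.6 CPM (SD, n = 3) in sgCtrl and 120 ± 26.1 in sgPrdx2 livers, with overlapping values and a log2 fold change of 0.01 ± 0.18 (SE; edgeR's quasi-likelihood adjusted p = 0.983). Liver 3.2 of the sgPrdx2 group stood apart in how levels depended on transcript length: its log2 CPM relative to the mean of the livers changed by -0.21 for each doubling of length, against 0.00 to 0.10 in the other 5. Results are therefore also given without it, and after a correction for the length and GC content of transcripts, which were known for 97.3% of the genes tested. The summed level of 12 hepatocyte markers was 79045 to 85105 CPM in sgCtrl livers and 137174 to 182086 CPM in sgPrdx2 livers, with no overlap. In such bulk tissue a lower level can come from fewer cells of a type or from less RNA per cell, and these cannot be told apart.

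Levels of the genes were ordered in CPM per kilobase of transcript. In sgCtrl livers Bgn was highest at 441.5 ± 33.3 CPM per kb (SD, n = 3), followed by Fn1 at 124.9 ± 27.9 and Postn at 9.77 ± 2.58. Thbs2, Fbln2, Fbln1, Thbs1 and Fbln5 followed between 5.67 and 4.79 CPM per kb, and each overlapped its neighbour in that order. Fbn1 at 3.69 ± 0.52 and Vcan at 0.27 ± 0.05 CPM per kb were lowest, each apart from the gene above it. In sgPrdx2 livers Bgn (356.7 CPM per kb), Fn1 (158.1) and Postn (4.96) again led and Vcan (0.13) was last, and the 6 genes between them, from Fbln5 at 3.78 to Thbs1 at 2.04 CPM per kb, overlapped their neighbours.

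For 4 members with a RefSeq start site outside every annotated exon, the 100 bases before that start are shown, because they form the pairs of members whose profiles over the 6 livers were most alike: Postn with Vcan, and Fbln5 with Bgn. The sequences are those of RefSeq on GRCm38.p6, written 5′ to 3′ on the strand of the gene, and capitals mark the letters of a TATA box, of the CCAAT motif, of a GC box or of an AP-1 site, searched on both strands and spelled out after the sequences.
Postn, chr3:54361007-54361106, plus strand: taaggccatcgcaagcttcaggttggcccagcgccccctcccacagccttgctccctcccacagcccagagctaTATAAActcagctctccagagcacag
Vcan, chr13:89742513-89742612, minus strand: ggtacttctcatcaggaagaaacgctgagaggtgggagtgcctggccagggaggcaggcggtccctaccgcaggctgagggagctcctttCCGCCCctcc
Fbln5, chr12:101819120-101819219, minus strand: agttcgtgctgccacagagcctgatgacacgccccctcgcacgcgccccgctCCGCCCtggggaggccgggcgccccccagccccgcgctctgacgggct
Bgn, chrX:73483501-73483600, plus strand: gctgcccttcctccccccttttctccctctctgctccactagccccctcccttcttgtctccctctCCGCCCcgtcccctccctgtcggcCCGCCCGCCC

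Postn, which was lower in sgPrdx2 livers, had a TATA box (TATAAA) close to its start, while the windows of the other 3 held GC boxes (GGGCGG, here read from the opposite strand). Over 250 bases before the start, in the 11 promoters matched to 8 of the members, a TATA box was found for Postn and Thbs2 (12.4% of all 32851 promoters held one). The letters CCAAT were found for Fbln5, Thbs2 and Vcan (33.8%). A GC box was found for Bgn, Fbln1, Fbln2, Fbln5, Fbn1 and Vcan (32.7%), and an AP-1 site (TGANTCA) for none of them (6.75%). The letters CAGAC, the short SMAD box, were present for Fbln1, Fbln5, Postn and Thbs2 (42.2%). An E-box (CANNTG) was present for 6 of the 8 genes (66.2%). None of these 6 motifs was found for all 4 members that fell.

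The proteoglycans were the extremes in abundance. Vcan encodes versican, a large chondroitin sulfate proteoglycan that binds hyaluronan and lies on the minus strand of chromosome 13 (GRCm38, 89655312 to 89742509, 15 exons in the transcript used). Its level was 2.70, 3.98 and 3.39 CPM in sgCtrl livers 5.1, 7.1 and 7.2, and 1.41, 1.72 and 1.69 CPM in sgPrdx2 livers 1.1, 1.3 and 3.2. The highest sgPrdx2 liver was thus below the lowest sgCtrl liver, 5.1. On the log2 scale the fold change was -1.06 ± 0.22 (SE; edgeR's quasi-likelihood adjusted p = 0.0483). These values rested on 55 to 179 counts per liver, the fewest of any member. Corrected for length and GC content, the log2 fold change was -0.77 and the adjusted p 0.0984, so the call was lost.

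Bgn encodes biglycan, a small leucine-rich proteoglycan that binds collagen and TGF-beta and can act on Toll-like receptors when released. It lies on the plus strand of chromosome X (GRCm38, 73483602 to 73495933, 8 exons). Its level was 1160, 1011 and 1032 CPM in the sgCtrl livers and 823.5, 827.5 and 937.5 CPM in the sgPrdx2 livers. The groups did not overlap, and the nearest livers were 7.1 at 1011 CPM and 3.2 at 937.5 CPM. Bgn had a log2 fold change of -0.31 ± 0.14, with a 95% interval of -0.64 to 0.03, and it did not pass the test (edgeR's quasi-likelihood adjusted p = 0.233).

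Fn1 encodes fibronectin, the adhesive glycoprotein bound by integrins and laid down early in fibrosis, and lies on the minus strand of chromosome 1 (GRCm38, 71585520 to 71653200, 46 exons). Its level was 844, 1294 and 976 CPM in the sgCtrl livers and 1556, 1453 and 935 CPM in the sgPrdx2 livers. Livers 1.1 and 1.3 were above every sgCtrl liver, whereas liver 3.2 lay among them. Fn1 differed by 0.34 ± 0.24 in log2 units, with a 95% interval of -0.22 to 0.91 (edgeR's quasi-likelihood adjusted p = 0.417), and with libraries scaled by total counts alone it was -0.0096. Without liver 3.2 it was 0.55 (adjusted p = 0.162), and corrected for length and GC content it was 0.53 (adjusted p = 0.138). By edgeR's quasi-likelihood test the unadjusted p was 0.0329 and 0.0294 in these fits, in that order. Of the 10 genes, Fn1 was the only one with its highest value in an sgPrdx2 liver. The higher hepatocyte marker RNA given above was measured in the same libraries, and its part in the Fn1 values was not tested.

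Fbn1 encodes fibrillin-1, the main protein of extracellular microfibrils, and lies on the minus strand of chromosome 2 (GRCm38, 125300594 to 125507993, 65 exons). Its level was 37.3, 49.2 and 46.1 CPM in the sgCtrl livers and 28.7, 26.5 and 21.5 CPM in the sgPrdx2 livers. All 3 sgPrdx2 livers were below the lowest sgCtrl liver, 5.1, and the group means were 44.2 ± 6.17 and 25.6 ± 3.69 CPM (SD). Its log2 fold change was -0.79 ± 0.16 (edgeR's quasi-likelihood adjusted p = 0.0466), and -0.58 when corrected for length and GC content (adjusted p = 0.0420). Without liver 3.2 the call was lost (-0.67, adjusted p = 0.0537). A gene on the opposite strand, Gm9913, shared 19.7% of the 50-base stretches of Fbn1 transcripts, and whether the counting used strand is not given in the sources used here, so reads of the pair may not be separable.

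The 3 fibulins, glycoproteins of elastic fibres and basement membranes, differed from one another. Fbln2 (chromosome 6, plus strand, GRCm38 91212455 to 91272540, 18 exons) encodes fibulin-2, which binds fibrillin and fibronectin. Its level was 24.8, 24.3 and 24.2 CPM in the sgCtrl livers and 12.5, 12.1 and 16.2 CPM in the sgPrdx2 livers. The sgCtrl livers were nearly identical, and livers 1.1 and 1.3 lay close together below liver 3.2, with no overlap. Fbln2 fell with a log2 fold change of -0.85 ± 0.14 (edgeR's quasi-likelihood adjusted p = 0.0386), the smallest adjusted p among the members. It was also called without liver 3.2 (log2 fold change -0.98, adjusted p = 0.0305) and when corrected for length and GC content (-0.74, adjusted p = 0.0340). In the fits without any one of the other 5 livers it was not called, with log2 fold changes of -0.86 to -0.75 and adjusted p of 0.0589 to 0.147.

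Fbln5 (chromosome 12, minus strand, GRCm38 101746565 to 101819055, 11 exons) encodes fibulin-5, which binds elastin and takes part in elastic fibre assembly. Its level was 29.5, 27.0 and 27.2 CPM in the sgCtrl livers and 20.9, 21.6 and 23.7 CPM in the sgPrdx2 livers. Values did not overlap, yet the log2 fold change of -0.34 ± 0.11 did not pass the test (edgeR's quasi-likelihood adjusted p = 0.124), and it was -0.11 when corrected for length and GC content. The log2 ratio of Fbln2 to Fbln5 counts within a liver, which no scaling factor changes, was -0.19 ± 0.05 (SD) in sgCtrl and -0.71 ± 0.15 in sgPrdx2 livers. Every sgPrdx2 liver was lower in this ratio than every sgCtrl liver (exact two-sided permutation p = 0.1, the smallest that 3 against 3 livers allow, and also 0.1 after adjustment over the 3 ratios compared). These 3 pairs were chosen after their values were seen, and no share over all gene pairs was computed.

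Fbln1 (chromosome 15, plus strand, GRCm38 85205949 to 85286535, 17 exons) encodes fibulin-1, found in vessel walls and basement membranes. Its level was 29.0, 15.9 and 9.48 CPM in the sgCtrl livers and 5.81, 8.28 and 13.6 CPM in the sgPrdx2 livers. Liver 5.1 was far above the rest and liver 3.2 was above sgCtrl liver 7.2, so the groups overlapped. Its log2 fold change of -0.98 ± 0.43 had the largest standard error of the members and was not called (edgeR's quasi-likelihood adjusted p = 0.212). It was -0.46 without liver 5.1 and -1.35 without liver 3.2. The gene with the profile nearest to Fbln1 was Mgp, matrix Gla protein of vessel walls, at -1.06 on the log2 scale (edgeR's quasi-likelihood adjusted p = 0.166). Liver 5.1 also had the highest smooth muscle RNA: Cnn1, calponin of smooth muscle, was at 9.32 CPM there against 0.07 to 0.65 CPM in the other 5, and Actg2, smooth muscle gamma-actin, at 7.54 against 0.14 to 0.76 CPM. The part of these cells in the Fbln1 values was not tested.

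Postn encodes periostin, a matricellular protein of fibrotic tissue that binds integrins and collagen, and lies on the plus strand of chromosome 3 (GRCm38, 54361109 to 54391037, 22 exons). Its level was 21.98, 37.7 and 34.3 CPM in the sgCtrl livers and 15.5, 15.3 and 16.9 CPM in the sgPrdx2 livers. The sgPrdx2 livers were close together, and liver 5.1 was the lowest of the sgCtrl livers but still above them all. Postn fell with a log2 fold change of -0.98 ± 0.20 (edgeR's quasi-likelihood adjusted p = 0.0466). With limma-voom the adjusted p was 0.0547. It was 0.0505 when corrected for length and GC content and 0.0604 without liver 3.2. The log2 ratio of Postn to Fn1 counts was -5.07 ± 0.22 (SD) in sgCtrl and -6.34 ± 0.47 in sgPrdx2 livers, without overlap (exact two-sided permutation p = 0.1, also after adjustment). This pair was chosen after both values were seen, so its p is no independent test.

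The thrombospondins are matricellular glycoproteins that bind CD36 and CD47, and thrombospondin-1 also activates latent TGF-beta. Thbs1 (chromosome 2, plus strand, GRCm38 118111876 to 118127133, 22 exons) was at 26.9, 31.4 and 25.8 CPM in the sgCtrl livers and at 13.03, 16.0 and 6.82 CPM in the sgPrdx2 livers. The groups did not overlap, and liver 3.2 was lowest by a wide margin. The log2 fold change, -1.23 ± 0.28, was the largest in size among the members, but missed the threshold (edgeR's quasi-likelihood adjusted p = 0.0561). It passed without liver 3.2, where it was -0.94 (adjusted p = 0.0376), and when corrected for length and GC content, where it was -1.07 (adjusted p = 0.0345).

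Thbs2 (chromosome 17, minus strand, GRCm38 14665500 to 14694235, 22 exons) encodes the thrombospondin that does not activate latent TGF-beta. Its level was 36.6, 34.4 and 29.2 CPM in the sgCtrl livers and 20.6, 25.0 and 17.8 CPM in the sgPrdx2 livers. Here too the groups did not overlap and liver 3.2 was lowest. Thbs2 had a log2 fold change of -0.66 ± 0.16, past the threshold neither with all livers (edgeR's quasi-likelihood adjusted p = 0.0635) nor without liver 3.2 (0.0724), but past it when corrected for length and GC content (-0.46, adjusted p = 0.0480). The log2 ratio of Thbs1 to Thbs2 counts was -0.25 ± 0.17 (SD) in sgCtrl livers, and -0.66, -0.65 and -1.39 in sgPrdx2 livers 1.1, 1.3 and 3.2. The ratio was lower in every sgPrdx2 liver (exact two-sided permutation p = 0.1, also after adjustment). The choice of this pair also followed a look at its values, so its p is no independent test.

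**Figure D2:**
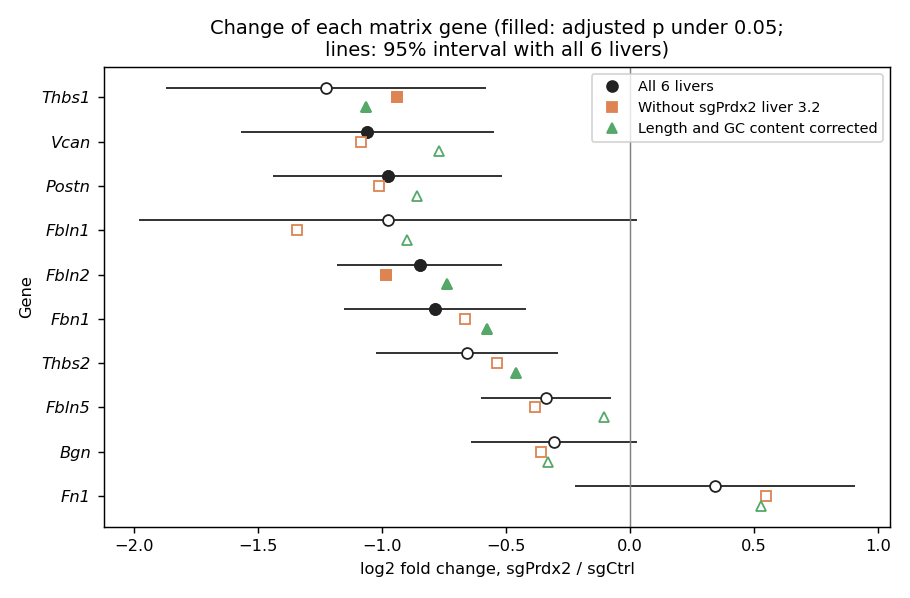
Log2 fold change of each matrix gene between sgPrdx2 and sgCtrl livers with all 6 livers (black, lines are 95% intervals), without sgPrdx2 liver 3.2 (orange) and after correction for transcript length and GC content (green), with filled symbols for adjusted p under 0.05. Fbln2 is filled in all 3 settings, Thbs1 in the latter pair only, and Fn1 lies to the right of 0 throughout.

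The count of 4 members called depended on the livers included. Without liver 3.2 only Fbln2 and Thbs1 were called (1.68% of all genes were called lower in that fit), and at an unadjusted p under 0.05 there were 9 members lower and Fn1 higher, beside 25.3% of all genes in either direction. Without any one of the other livers (5.1, 7.1, 7.2, 1.1 or 1.3) no member was called by edgeR's quasi-likelihood test, with 6 to 8 of the 10 at an unadjusted p under 0.05, beside 17.9% to 23.1% of all genes. In the fits without 5.1, 7.2, 1.1 or 1.3 edgeR called 0 genes of any kind, so that the calls lost there are not particular to the members. Without 7.1 it called 394 genes, 178 of them lower, and without 3.2 it called 619, 295 of them lower. With all livers these counts were 567 and 262. In the fits without 7.1 or 3.2 members thus lost calls although many genes were still called. DESeq2 on all 6 livers called 6 members, the same 4 with Thbs1 and Thbs2, and 5.78% of all genes as lower. After correction for transcript length and GC content 4 were called, Fbln2, Fbn1, Thbs1 and Thbs2, and 2.85% of all genes were lower.

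By their median, the members were lower in each of the 3 sgPrdx2 livers, though single genes differed between them. The median over the 10 genes of the log2 deviation from the gene's sgCtrl mean was -0.02, 0.11 and -0.04 in sgCtrl livers 5.1, 7.1 and 7.2, and -0.83, -0.76 and -0.72 in sgPrdx2 livers 1.1, 1.3 and 3.2. In the same livers Thbs1 deviated by -1.10, -0.80 and -2.02, and Fbln1 by -1.48, -0.97 and -0.27. Among the 6 livers, the lowest value of a member was found in liver 1.1 for 4 genes, in liver 3.2 for 3, in liver 1.3 for 2 and in liver 5.1 for Fn1. Fbln2 and Fbln5 had sgCtrl values within a narrow range, whereas Fbln1 spread widely in both groups.

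Genes with which the members work were then examined in lists by role. Over all genes tested, edgeR called 1.54% lower and 1.79% higher. Of 19 tested partners in microfibrils and elastic fibres 2 fell, Emilin2 (-0.89 ± 0.14, adjusted p = 0.0358), an elastic fibre glycoprotein, and Ltbp2 (-0.69 ± 0.12, adjusted p = 0.0383), a latent TGF-beta binding protein family member that binds fibrillin (edgeR's quasi-likelihood test for these and the following log2 fold changes with SE). None rose, and the median log2 fold change of that list was -0.38. Lox, the crosslinking enzyme of elastin and collagen, did not pass the test at -1.07 ± 0.29 (adjusted p = 0.0790).

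Among 19 other adhesive and matricellular genes 2 fell and none rose by edgeR, with a median of -0.34. Tnc, tenascin-C, a matricellular protein of injured tissue and partner of periostin, was at 24.0, 30.7 and 24.9 CPM in sgCtrl and 13.2, 12.2 and 10.8 CPM in sgPrdx2 livers, and its log2 fold change was -1.14 ± 0.15 (edgeR's quasi-likelihood adjusted p = 0.0313). Sparcl1, a SPARC relative, fell by 0.71 on the log2 scale (adjusted p = 0.0430). Values in that list also lay above 0: Vtn, vitronectin made by hepatocytes, was at 0.94 ± 0.22 (adjusted p = 0.0570), with every sgPrdx2 liver above every sgCtrl liver, and DESeq2 and edgeR without the low-count filter called it higher.

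Of 21 tested proteoglycan and hyaluronan genes 1 fell, the cell-surface proteoglycan Sdc3 (-0.79 ± 0.17, edgeR's quasi-likelihood adjusted p = 0.0491). The median was -0.31, and 15 of the 21 were below 0. Sdc1 (0.34 ± 0.19, adjusted p = 0.316), Sdc2 (0.40 ± 0.15, adjusted p = 0.160) and Sdc4 (0.62 ± 0.20, adjusted p = 0.117), of the same family as Sdc3, lay above 0. Every sgPrdx2 liver was above every sgCtrl liver for Sdc2 and Sdc4, and DESeq2 called Sdc4 higher. Of 13 basement membrane genes 1 fell, the laminin chain Lama2 (-0.66 ± 0.14, adjusted p = 0.0471), and all 13 had log2 fold changes below 0, against 51.7% of all genes tested. Of 9 fibrillar and type VI collagens 1 fell, Col5a2 (-1.15 ± 0.17, adjusted p = 0.0355), with a median of -0.43. Neither Col1a2 (-0.67 ± 0.16, adjusted p = 0.0612) nor Col3a1 (-0.63 ± 0.20, adjusted p = 0.109) passed by edgeR. DESeq2 called both lower, beside 5.78% of all genes, and edgeR without the low-count filter called Col1a2 lower.

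Of 17 receptors for the members 1 fell, Cd44, the hyaluronan receptor, which was at 73.8, 69.0 and 65.9 CPM in sgCtrl and 37.1, 40.3 and 34.5 CPM in sgPrdx2 livers (-0.90 ± 0.12, edgeR's quasi-likelihood adjusted p = 0.0328). In 11 of the 17 every sgPrdx2 liver was below every sgCtrl liver, which was so for 17.5% of all genes tested. Among these receptors were Cd36, the thrombospondin receptor (-0.72 ± 0.16, adjusted p = 0.0555), and Tlr4, at which soluble biglycan acts (-0.82 ± 0.19, adjusted p = 0.0555). Of the 6 TGF-beta ligands and feedback targets, the ligand genes Tgfb1 (-0.61 ± 0.12, adjusted p = 0.0466) and Tgfb3 (-0.65 ± 0.12, adjusted p = 0.0411) fell.

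None of 11 tested matrix processing enzymes was called by edgeR, while 4 were lower at an unadjusted p under 0.05, against 11.9% of all genes tested. DESeq2 called 3 lower, against 5.78% of all genes. The versican-cleaving enzymes Adamts4 (-1.35 ± 0.40, edgeR's quasi-likelihood adjusted p = 0.0997) and Adamts1 (-0.92 ± 0.30, adjusted p = 0.115) missed the threshold, as did the procollagen N-proteinase Adamts2 (-0.41 ± 0.12, adjusted p = 0.0978). Without liver 3.2 Emilin2, Ltbp2, Tnc, Tgfb1, Tgfb3, Cd44 and Col5a2 were again called, whereas Sparcl1, Sdc3 and Lama2 were not, and Wisp2, Lamc1 and Itga4 were called in addition. Without liver 7.1 only Emilin2, Tnc, Cd44 and Col5a2 were called in these lists, and without 5.1, 7.2, 1.1 or 1.3, where edgeR called no gene at all, none was.

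**Figure D3:**
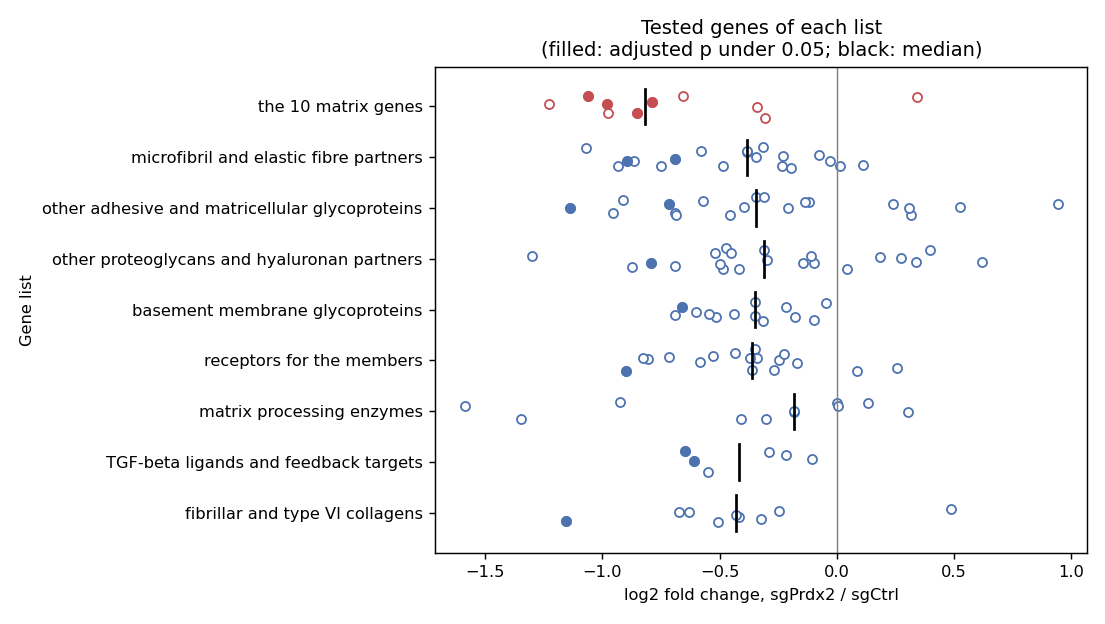
Log2 fold change between sgPrdx2 and sgCtrl livers of every tested gene in the lists by role (points, spread vertically at random), filled where the adjusted p was under 0.05, with black lines for medians. The median of the 10 matrix genes is -0.82, and those of the other lists lie between -0.43 and -0.18. All lists were chosen with earlier results of these data known.

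Markers of the cells a liver sample holds were compared beside the members. Over all genes tested, edgeR called 1.54% lower, 11.9% were lower at an unadjusted p under 0.05, and DESeq2 called 5.78% lower. Of 12 stellate cell markers none was called by edgeR, 1 had an unadjusted p under 0.05 and DESeq2 called 1 lower, and their median log2 fold change was -0.06. Their summed level was 484.6 to 539.6 CPM in sgCtrl and 429.6 to 490.9 CPM in sgPrdx2 livers, and the defining marker Lrat, which stores retinol esters, had values of 19.7 to 30.5 and 8.20 to 19.4 CPM (log2 fold change -0.71, edgeR's quasi-likelihood adjusted p = 0.209). Pdgfra, a receptor of stellate cells and fibroblasts, was at -0.62 (adjusted p = 0.110), and Vipr1 at 0.24 (adjusted p = 0.384). Of the 12 stellate cell markers, 7 were below 0. Relative to this stellate sum, 6 members were lower in every sgPrdx2 liver than in every sgCtrl liver. On CPM alone this was so for 17.5% of all genes tested, and the share of all genes was not computed for this ratio. The count of 6 therefore has no background to be read against. The mean log2 difference was -1.19 for Thbs1, -0.92 for Vcan, -0.81 for Postn, -0.73 for Fbln2, -0.66 for Fbn1 and -0.54 for Thbs2 (each exact two-sided permutation p = 0.1, 0.167 after adjustment over 10 members). The other 4 overlapped, with -0.79 for Fbln1, -0.21 for Fbln5, -0.18 for Bgn and 0.46 for Fn1.

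**Figure D4:**
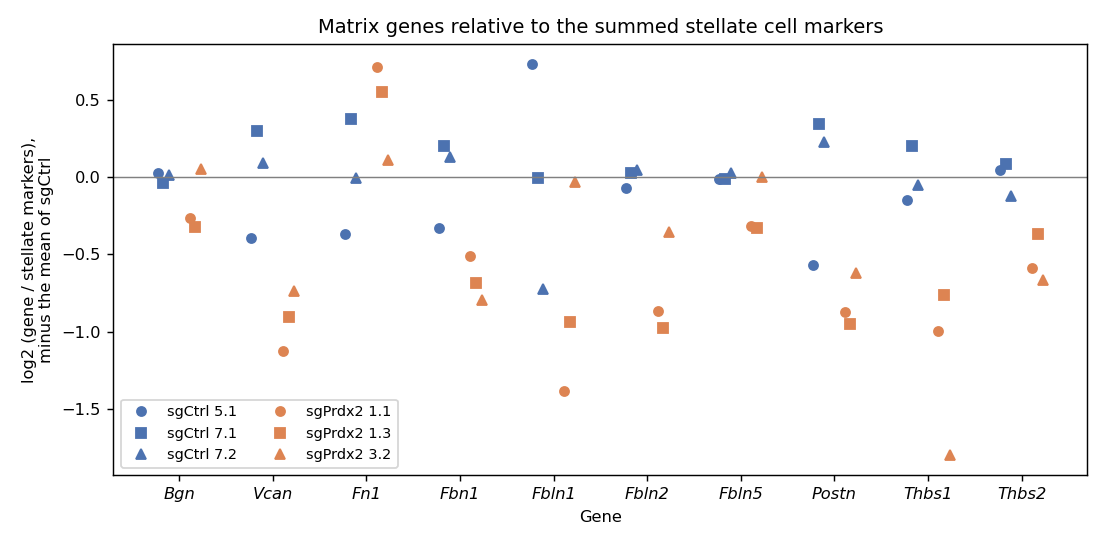
Log2 of each matrix gene's level over the summed level of 12 stellate cell markers, per liver, set to 0 at the mean of the sgCtrl livers (blue sgCtrl, orange sgPrdx2). The groups lie apart for Vcan, Fbn1, Fbln2, Postn, Thbs1 and Thbs2 and overlap for Bgn, Fn1, Fbln1 and Fbln5.

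Of 12 myofibroblast and smooth muscle markers none was called by edgeR, 4 had an unadjusted p under 0.05 and DESeq2 called 2 lower, with a median log2 fold change of -0.62. That median was -0.14 without liver 5.1, whose Cnn1 and Actg2 levels are given above. Their sum was 187.4, 106.4 and 125.4 CPM in sgCtrl and 78.7, 69.8 and 108.6 CPM in sgPrdx2 livers. Acta2, the smooth muscle actin that marks myofibroblasts, was at 41.1, 19.1 and 21.9 CPM in sgCtrl and 8.09, 7.36 and 13.8 CPM in sgPrdx2 livers, without overlap (log2 fold change -1.49, edgeR's quasi-likelihood adjusted p = 0.0584). Acta2 and Tagln, another smooth muscle gene (-0.77, adjusted p = 0.0912), were called without liver 3.2, and also when corrected for length and GC content. Relative to the sum of these markers, the members' median log2 difference was -0.14 (-0.27 without liver 5.1), and Fbln5, Thbs2 and Bgn were at 0.35, 0.022 and 0.38 with all livers. Thbs2 was at -0.14 without liver 5.1. The part of these cells in the members' values was not tested.

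Of 11 macrophage markers 1 fell, Gpnmb (log2 fold change -1.08, edgeR's quasi-likelihood adjusted p = 0.0373), and the sum was 3653 to 4298 CPM in sgCtrl and 2476 to 3307 CPM in sgPrdx2 livers. Of 10 sinusoidal endothelial markers 1 fell, Pecam1 (-0.77, adjusted p = 0.0423), and of 8 cholangiocyte markers 1 fell, Cldn4 (-0.83, adjusted p = 0.0394). Hepatocyte markers moved the other way, with Alb, Apoa1, Ttr and Cyp2e1 higher among 12 (0.96 to 1.36 on the log2 scale, adjusted p of 0.0394 to 0.0472). Of platelet markers, which matter because platelets carry thrombospondin-1, 4 of 6 were tested and none was called, by edgeR or DESeq2 or at an unadjusted p under 0.05. Their sum was 10.4 to 13.9 CPM in sgCtrl and 10.2 to 15.3 CPM in sgPrdx2 livers. Ppbp, a platelet chemokine, was at -0.62 (edgeR's quasi-likelihood adjusted p = 0.256), on 0.215 to 0.381 CPM per liver. Itga2b was at 0.26 (adjusted p = 0.405) and Pf4 at -0.14 (adjusted p = 0.745). Of the 4 tested, 2 were below 0. The platelet genes Gp9 and Gp1bb were at or near 0. The part of these cell types in the members' values was not tested.

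**Figure D5:**
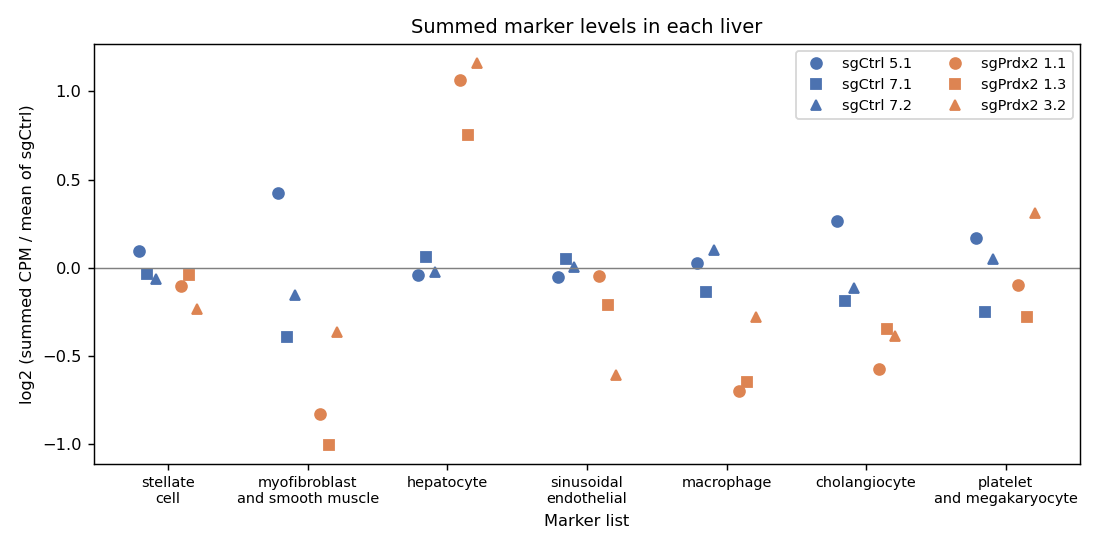
Summed CPM of each marker list in each liver as log2 relative to the mean of the sgCtrl livers (blue sgCtrl, orange sgPrdx2). The hepatocyte sums of the sgPrdx2 livers lie above every sgCtrl liver and the macrophage and cholangiocyte sums below, while stellate cell, myofibroblast, sinusoidal endothelial and platelet sums overlap.

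The genes most like each member over the 6 livers were sought among 14113 genes by the root mean square difference of centred log2 CPM. Closest to Fbln2 were Shc2, Tnip3 and Dock2 (differences of 0.043 to 0.082). Closest to Fbn1 were Gm17087, Fstl1 and Bub1b (0.059 to 0.081), and closest to Postn were Serpinb6b, Sprr1a and Cdca5 (0.106 to 0.138). Vcan was nearest to Ksr2, Usp43 and Neurl1a (0.079 to 0.132), Thbs1 to Vav3, AC135641.1 and Itga2 (0.114 to 0.152), and Thbs2 to Meis2, Xylt1 and Pdgfb (0.046 to 0.051). Fbln5 was nearest to Dusp3, Mkl1 and Pigh (0.035 to 0.038), and Bgn to Pde12, Tmem189 and A430105I19Rik (0.039 to 0.040). Fbln1 was nearest to Mgp, Ephb2 and Tnk1 (0.119 to 0.238), the widest differences, and Fn1 to Sgk2, Mut and Elovl5 (0.059 to 0.069). Among the members themselves the closest profiles were those of Fbln5 and Bgn (0.030) and of Postn and Vcan (0.131), and the farthest apart were those of Fbln1 and Fn1 (1.01).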

How the data were processed

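RNA of 6 whole livers was sequenced. The authors deposited raw read counts per gene, and the submitters' processing notes name HISAT2, HTSeq, DESeq2 and the build GRCm38. Versions, annotation release and strand setting are not given in the sources used here. A deposited table of the authors' own DESeq2 comparison (means, log2 fold changes, errors, p-values) was not used.

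Counts were filtered with filterByExpr (minimum count 10), scaled by TMM and tested with edgeR 4.0.16 (glmQLFit, glmQLFTest; R 4.3.3) over all 17032 genes, sgPrdx2 against sgCtrl, with Benjamini-Hochberg adjustment at 0.05. Groups were taken from the guide RNA label. The labels tie no liver of one group to one of the other. CPM values are TMM-scaled, per-kilobase values use each gene's longest protein-coding transcript in GENCODE M21 (GRCm38), and fold changes are sgPrdx2 over sgCtrl. DESeq2 1.42.0, limma 3.58.1 (voom), other scalings, other filters, a length and GC correction (mgcv 1.9.3) and leaving out each liver were alternatives. Each liver was a separate animal. Named genes were all members and, in each list, those called, or else up to 3 with the smallest p, plus the 3 nearest profiles per member. Other genes named (Vtn, Lox, Sdc1, Sdc2, Sdc4, Col1a2, Col3a1, Cd36, Tlr4, Actg2, Wisp2, Lamc1, Itga4, Gp9, Gp1bb) were picked with their values in view. The members, lists and ratios were chosen with earlier results of these data known. The calls, counts and medians of the members and lists, and the ratios, are therefore not independent evidence.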

Additional observations from a re-analysis of the deposited data

How the results depend on the processing

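With 3 livers per group the adjusted p of the 4 called members lay just under the threshold, and 262 genes were called lower and 305 higher (567 in all). Under total counts alone 3247 genes were called, 3041 lower and 206 higher, with 8 members and a members' median of -1.19. The median of all genes moved from -0.02 to -0.39 there, and the members' median minus that of all genes was -0.80 in both fits, while Fn1 was at -0.0096. Without the low-count filter 1128 genes were called, with DESeq2 2048, and after correction for length and GC content 1114, where the members' median was -0.66. DESeq2 called 7 in place of 1 of the receptors, 4 in place of 2 of the microfibril partners and 3 in place of 1 of the basement membrane genes. Of the fibrillar and type VI collagens it called 3 in place of 1. At an adjusted p under 0.01 edgeR called 0 genes and 0 members (4241 genes and 7 members had an unadjusted p under 0.05), and DESeq2 1150 genes and 6 members. Leaving out each liver in turn, edgeR called 0 to 619 genes (3114 to 4436 at an unadjusted p under 0.05) and 0 to 2 members, with a members' median of -0.81 to -0.71. With myofibroblast in place of stellate markers as the reference, the members' median was -0.14, and Fbln5 (0.35), Thbs2 (0.022) and Bgn (0.38) changed sign. Without liver 5.1 that median was -0.27 and Thbs2 was at -0.14. The cause of these shifts was not tested. Vcan has the fewest counts of the members, under 200 per liver. No paired analysis was possible because the labels' mouse numbers are not shared between the groups, and the replicate numbers used here only follow the order of the samples.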
